A study of Homo sapiens with 12 samples.

Results

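Mock cells are the control of a CXCR4 knockdown experiment in IGROV-1, a long-established line of human ovarian carcinoma cells, and what set their 3 arrays apart from the other 9 is described here. Of the 19775 genes measured, 2553 (12.9%) had all 3 Mock arrays outside the range of the 9 other arrays. Mock lay above that range for 1651 genes (8.35%) and below it for 902 (4.56%). The members are these 2553 genes, chosen by that rule on these same values, so their Mock differences are given as a description. The other 9 arrays are 3 of Parental cells, which were not transfected, and 3 of each CXCR4 short hairpin RNA (shRNA) line, shCXCR4 (I) and shCXCR4 (II). Mock carries a plasmid with a scrambled RNA and is a pool of clones, whereas each shCXCR4 line is an individual clone with 1 of 2 shRNA sequences against CXCR4. Mock and both shCXCR4 lines went through transfection with a Lipofectamine reagent and 30 days of selection in 4 µg/ml puromycin, and no such step is given for Parental. All 4 groups grew in RPMI medium with 10% fetal calf serum, and 6 µg of total RNA per array was hybridised to Affymetrix U133 Plus 2.0 arrays. The labels do not say whether the 3 arrays of a group came from separate cultures, so errors and p-values here cover no more than the spread from array to array within a group, which may be technical. Mock shares transfection and selection with both clones, whereas being a pool and carrying the scrambled RNA belong to Mock alone and cannot be told apart.

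CXCR4 is the receptor for the chemokine CXCL12, signals through inhibitory G proteins and is known for guiding the migration of ovarian cancer cells. A scrambled shRNA control is meant to carry everything the knockdown cells carry except the targeting sequence, so a knockdown effect is usually read as the difference between knockdown and control. Such a difference has 2 sides. A gene that is low in the control pool looks raised in every knockdown line compared with it, and a gene that is high in the pool looks lowered. Untransfected cells give a second point of comparison, and for each gene the question asked here is whether they lie with the control pool or with the knockdown clones. All values are log2 probe set values, so a difference of 1 is a 2-fold difference. In RNA from many cells, fewer cells of a type and less RNA per cell cannot be told apart, nor can a moderate level in all clones of a pool and a high level in some of them.

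Of the genes with Mock alone apart, described below, 8 have a promoter in the RefSeq table used here, and the leading pair in each direction is shown so that the sequence upstream of the clearest differences can be seen. NOSTRIN and AQP1 were high in Mock, and BCL2L15 and CREB5 were low in it. Each line gives the 250 bases before the annotated start, 5′ to 3′ on the gene's strand, from RefSeq with build GRCh38.p14. Capitals mark matches on either strand to the TATA box TATAAA, the GC box GGGCGG or the CCAAT box, spelled by its name, and matches of different motifs may overlap.
NOSTRIN (chr2:168802387-168802636, plus strand): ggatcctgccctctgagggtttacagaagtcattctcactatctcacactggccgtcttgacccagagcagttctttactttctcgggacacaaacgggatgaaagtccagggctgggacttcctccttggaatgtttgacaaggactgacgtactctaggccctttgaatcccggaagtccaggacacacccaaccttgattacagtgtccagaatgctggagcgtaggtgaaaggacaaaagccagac
AQP1 (chr7:30911603-30911852, plus strand): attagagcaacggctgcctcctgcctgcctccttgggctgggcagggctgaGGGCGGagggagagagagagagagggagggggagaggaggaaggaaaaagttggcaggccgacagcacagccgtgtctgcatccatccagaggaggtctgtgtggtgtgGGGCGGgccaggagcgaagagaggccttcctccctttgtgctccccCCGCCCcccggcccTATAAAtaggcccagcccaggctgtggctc
BCL2L15 (chr1:113887582-113887831, minus strand): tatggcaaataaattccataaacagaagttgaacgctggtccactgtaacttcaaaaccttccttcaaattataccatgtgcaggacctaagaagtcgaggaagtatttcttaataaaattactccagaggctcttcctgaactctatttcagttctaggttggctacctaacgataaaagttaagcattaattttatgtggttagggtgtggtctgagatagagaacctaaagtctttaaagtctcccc
CREB5 (chr7:28412268-28412517, plus strand): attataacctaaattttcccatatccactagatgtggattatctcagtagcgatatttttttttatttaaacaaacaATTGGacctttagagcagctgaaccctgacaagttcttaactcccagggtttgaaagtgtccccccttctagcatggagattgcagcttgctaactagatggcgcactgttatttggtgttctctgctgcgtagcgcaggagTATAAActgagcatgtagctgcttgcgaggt
These 4 stretches hold 6, 8, 3 and 5 CpG dinucleotides, against a median of 18 over the 15384 measured genes with a promoter in the table. AQP1 has 1 TATA box and 3 GC boxes, CREB5 has 1 TATA box and 1 CCAAT box, and NOSTRIN and BCL2L15 hold none of the 3 motifs in this window. Of those 15384 measured genes, 8.31% hold TATAAA, 56.3% GGGCGG and 34.1% CCAAT. Over all 27305 promoters in the table the shares are 11.1%, 42.3% and 33.0%. Low CpG was not a property of the 2553 genes as a whole, whose median was 20 over the 2051 with a promoter. It was 11 over the 25 with a promoter among the 36 genes that stood at least 2-fold from every other group, with quartiles of 4 and 28, against 7 and 26 over all measured genes.

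CXCR4 itself checks the labels of the clones against those of the controls, but not Mock against Parental. Probe set 217028_at gave 8.51, 8.60 and 8.64 on the Mock arrays, 8.42, 8.28 and 8.30 in Parental, 7.06, 7.10 and 7.11 in shCXCR4 (I) and 6.39, 6.73 and 6.75 in shCXCR4 (II). Both clones lay below all Parental and Mock arrays, and the 3 Mock arrays were the highest of the 12. Mock exceeded Parental by 0.25 (SE 0.09), which did not pass (limma adjusted p = 0.0699). Parental lay 14.6% of the way from Mock to the clones, so for the targeted gene the untransfected cells lay near the control pool.

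The width of the value distribution on each array moved with the Mock group. The interquartile range over probe sets ran from 3.38 to 3.43 in Mock and from 3.19 to 3.31 in the other 9 arrays, with no overlap (two-sided exact permutation test, p = 0.00909, the smallest that 220 arrangements allow). The array medians were 4.25 to 4.28 in Mock and 4.30 to 4.39 elsewhere (exact permutation p = 0.00909). These permutations treat the 12 arrays as exchangeable, although they come in 4 groups of 3. Their p-values therefore do not set Mock against the spread between cell lines. The difference between the 3′ and 5′ control probe sets of ACTB, a sign of RNA quality, was 0.419 to 0.583 in Mock and 0.357 to 0.598 elsewhere (exact permutation p = 0.509), and that of GAPDH had an exact permutation p of 0.836. Of 12 ovarian and epithelial markers, 11 lay above the median of the arrays. Of the markers of other cell types, 4 of 12 for leukocytes, 3 of 7 for endothelium and 6 of 10 for fibroblasts and smooth muscle did so, and none of these was higher in Mock by the limma test. The mean of the leukocyte markers was 4.05 to 4.12 in Mock and 4.15 to 4.26 elsewhere, with 2 of 12 lower by the test, as were 2 of 7 endothelial markers and none of the fibroblast ones, against 10.7% of all genes. Of the 12 ovarian and epithelial markers 6 were higher in Mock and none lower, where 15.6% of all genes were higher. A list of 24 ovarian carcinoma and epithelial markers was mixed, with 7 higher, 4 lower and a median of -0.08. After quantile normalization 5 of these 24 were higher and 6 lower. The part of these markers in the results was not tested. These log2 values have no true zero, so a low value is not an absence.

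Mock stood outside the range of the others more often than any other group did. The like counts were 1758 genes (8.89%) for Parental, 1504 (7.61%) for shCXCR4 (I) and 1148 (5.81%) for shCXCR4 (II). In Mock 64.7% of the genes lay above the range. After quantile normalization, which gives all arrays the same distribution, Mock lay outside for 2017 genes, 958 above and 1059 below, and Parental for 1893, so the lead of Mock was narrower than in the deposited values. After centring each array on its median the split was 2524 above and 466 below. The upward excess in the deposited values thus changed with the scaling, and 1581 of the 2553 genes (61.9%) were outside in the same direction after quantile normalization. The direction also followed the level of a gene. Of the 3955 dimmest genes, at mean levels up to 3.33, 22 lay above and 129 below, and of the 3955 brightest, from 7.92 upward, 689 lay above and 174 below. After quantile normalization these counts were 43 and 55, and 327 and 342.

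**Figure D1:**
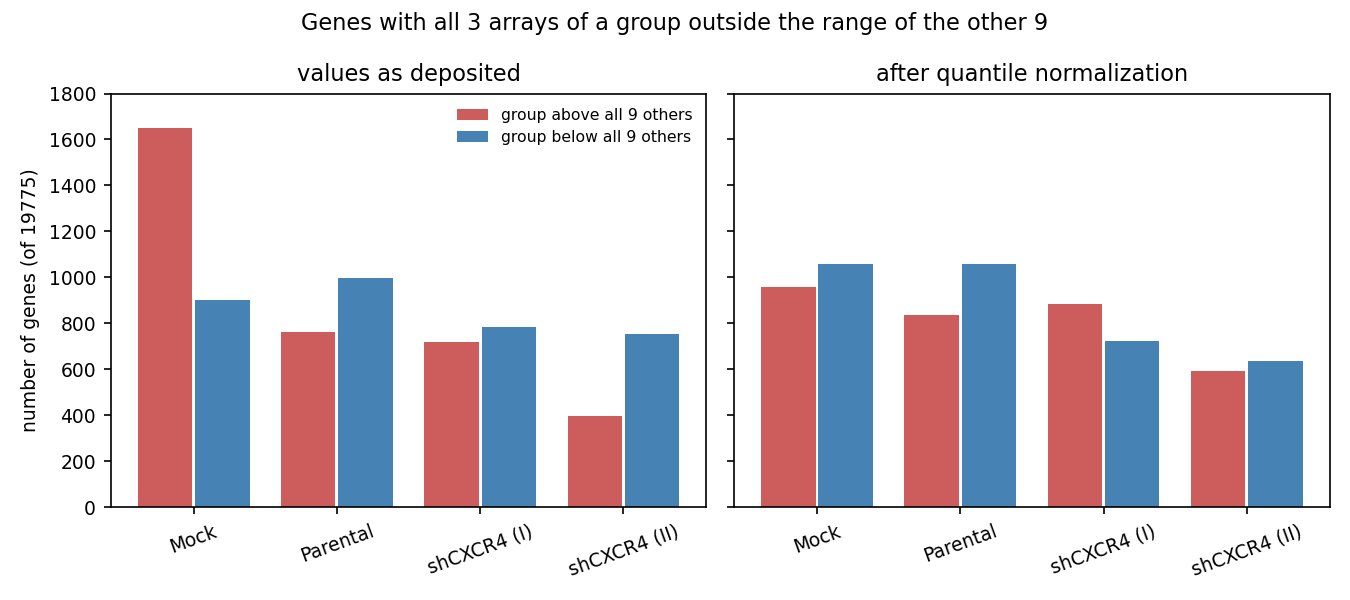
Number of genes, of 19775, whose 3 arrays in a group all lie above (red) or all below (blue) the other 9 arrays, with the deposited values on the left and after quantile normalization on the right. Mock has 1651 above and 902 below as deposited and 958 and 1059 after quantile normalization.

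Across all genes, limma with the equal-weight mean of the 3 other groups gave 3083 genes higher in Mock (15.6%) and 2119 lower (10.7%) at a Benjamini-Hochberg adjusted p under 0.05. Of these, 49 (0.248%) were at least 2-fold higher and 39 (0.197%) at least 2-fold lower. The split was 1889 higher and 2063 lower after quantile normalization, and 4335 and 1172 after centring. Without Mock replicate 2 the total fell from 5202 to 3380, the lower genes to 1203 and the genes past all 3 single comparisons to 733. Against each group on its own, Mock differed at that threshold from Parental in 15.0% of genes, from shCXCR4 (I) in 23.6% and from shCXCR4 (II) in 26.1%, and 1105 genes (5.59%) passed all 3 in 1 direction.

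Most of the shift was small. For each of the 2553 genes the difference between Mock and the nearest other group mean was taken, here called the nearest-group difference. It was under 0.25 for 1680 genes, 0.25 to 0.5 for 715, 0.5 to 1 for 122 and at least 1 for 36. The nearest group was Parental for 1347 genes, shCXCR4 (I) for 668 and shCXCR4 (II) for 538. Over all genes, too, Mock was nearest Parental, with median absolute differences of 0.108 from Parental and 0.133 and 0.14 from the clones. Just inside the rule were NEK4, at a nearest-group difference of 0.10, and DECR1, at -0.09. Just outside it were LINC01798, at 0.12, and ECEL1, at -0.20, whose Mock arrays touched the range of the others. With a gap of at least 0.2 required between Mock and the range, 359 genes were left, 230 above and 129 below.

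The 36 genes at least 2-fold from every other group fell into 20 above and 16 below, and all 36 were outside the range in both other scalings. In 14 of them the 3 other group means lay within 0.5 of each other, so that Mock was alone apart. These 14 include a vesicle-trafficking regulator, a water channel, a neural adhesion molecule and a member of the BCL2 family, and they are given 1 by 1. By this choice all 14 differed at least 2-fold between Mock and each clone, and none did so between a clone and Parental.

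LRCH2, a leucine-rich repeat protein with a calponin homology domain, had the largest nearest-group difference. Its probe set 227688_at read 5.52, 5.49 and 5.71 on the Mock arrays, 2.39, 2.52 and 2.35 in Parental, 2.37, 2.30 and 2.40 in shCXCR4 (I) and 2.43, 2.55 and 2.86 in shCXCR4 (II). The 9 other arrays lay at the dim end of the array, below the array medians, with no detection call to show a signal above background, and the nearest-group difference was 2.96. NOSTRIN, which binds endothelial nitric oxide synthase and takes part in its trafficking, showed the same layout on 226992_at, with 5.53, 5.58 and 5.45 on the Mock arrays, 2.98, 3.23 and 3.02 in Parental, 2.95, 2.72 and 3.18 in shCXCR4 (I) and 2.72, 2.76 and 2.71 in shCXCR4 (II). Mock was 2.60 ± 0.08 (SE) above the mean of the other groups, and the others again sat at the dim end. CARD16, a caspase recruitment domain protein known to bind caspase-1, was dim throughout, with 4.00, 3.77 and 3.60 on the Mock arrays, 2.65, 2.88 and 2.78 in Parental, 2.53, 2.66 and 3.04 in shCXCR4 (I) and 2.60, 2.91 and 2.69 in shCXCR4 (II) on 1552701_a_at. All 3 genes had values below the array median in the 9 other arrays, and CARD16 had them in Mock as well.

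The water channel AQP1 was the brightest of the genes alone high in Mock. Probe set 209047_at read 9.04, 9.16 and 9.25 on the Mock arrays, 7.44, 7.46 and 7.47 in Parental, 7.56, 7.51 and 7.46 in shCXCR4 (I) and 7.71, 7.73 and 7.85 in shCXCR4 (II). Mock was 2.62-fold above the nearest group, shCXCR4 (II), and overlapped with none of the 3 groups. CENPV, a centromere protein, read 6.64, 6.66 and 6.67 on the Mock arrays, 5.46, 5.53 and 5.52 in Parental, 5.17, 5.20 and 4.88 in shCXCR4 (I) and 5.48, 5.17 and 5.59 in shCXCR4 (II) on 226611_s_at. The mean was lowest in shCXCR4 (I), and Parental and shCXCR4 (II) overlapped. SLC16A10, a transporter of aromatic amino acids, read 7.53, 7.55 and 7.44 on the Mock arrays, 6.30, 6.04 and 6.24 in Parental, 6.15, 6.02 and 5.94 in shCXCR4 (I) and 6.57, 6.43 and 6.29 in shCXCR4 (II) on 222939_s_at. Parental overlapped with shCXCR4 (I) and with shCXCR4 (II) there, and Mock with none.

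BCL2L15, a member of the BCL2 family of apoptosis regulators, was the gene furthest below the others. Probe set 236979_at read 5.66, 5.57 and 5.38 on the Mock arrays, 8.35, 8.36 and 8.30 in Parental, 7.89, 8.05 and 7.95 in shCXCR4 (I) and 8.36, 8.29 and 8.33 in shCXCR4 (II). Mock was -2.67 ± 0.06 (SE) against the mean of the other groups, and Parental and shCXCR4 (II) were level, at 8.34 and 8.33 on average. SYTL2, an effector of the small GTPase RAB27 in vesicle transport, read 5.97, 6.03 and 6.35 on the Mock arrays, 7.83, 7.71 and 7.79 in Parental, 8.15, 8.25 and 8.17 in shCXCR4 (I) and 7.93, 7.87 and 7.96 in shCXCR4 (II) on 225496_s_at. CREB5, a transcription factor that binds cAMP response elements, read 3.58, 3.41 and 3.96 on the Mock arrays, 5.07, 5.22 and 5.17 in Parental, 5.35, 5.37 and 5.35 in shCXCR4 (I) and 4.96, 5.11 and 5.33 in shCXCR4 (II) on 229228_at. In both genes shCXCR4 (I) had the highest mean and 1 Mock array, replicate 3, lay above its 2 fellows.

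NCAM1, a neural cell adhesion molecule of the immunoglobulin type, read 7.24, 7.26 and 7.54 on the Mock arrays, 8.70, 8.62 and 8.68 in Parental, 8.64, 8.54 and 8.64 in shCXCR4 (I) and 8.95, 8.71 and 8.79 in shCXCR4 (II) on 212843_at. Mock was 2.4-fold below the nearest group, and the 9 others spanned less than 0.5. BEX2, a small protein encoded on the X chromosome, read 6.26, 6.28 and 6.38 on the Mock arrays, 7.55, 7.56 and 7.52 in Parental, 8.03, 8.05 and 8.01 in shCXCR4 (I) and 7.53, 7.68 and 7.83 in shCXCR4 (II) on 224367_at. Here shCXCR4 (I) stood above Parental by 0.49 (limma adjusted p = 0.000307), so this clone did not match Parental exactly. LTF, the iron-binding lactoferrin, read 4.39, 4.45 and 4.62 on the Mock arrays, 5.59, 5.65 and 5.67 in Parental, 5.80, 5.58 and 5.75 in shCXCR4 (I) and 5.74, 5.57 and 5.53 in shCXCR4 (II) on 202018_s_at, with the 3 other groups overlapping each other.

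ITGB2-AS1, an antisense RNA of the integrin beta-2 gene by the array annotation, read 6.84, 6.77 and 6.69 on the Mock arrays, 7.75, 7.83 and 7.80 in Parental, 8.14, 8.21 and 8.04 in shCXCR4 (I) and 7.95, 8.28 and 8.24 in shCXCR4 (II) on 229041_s_at. TMEM45B, a transmembrane protein, read 5.91, 5.33 and 5.59 on the Mock arrays, 6.97, 6.90 and 7.01 in Parental, 7.03, 6.90 and 7.03 in shCXCR4 (I) and 6.58, 6.67 and 6.62 in shCXCR4 (II) on 226226_at. Mock was below by -1.26 ± 0.07 and -1.24 ± 0.09 (SE) in these genes, and TMEM45B was lower in shCXCR4 (II) than in the other clone and Parental. Over the 14 genes, the median absolute difference was 1.33 between Mock and Parental, 0.145 between shCXCR4 (I) and Parental and 0.146 between shCXCR4 (II) and Parental. The last pair is small by the choice of genes, since the other group means had to lie within 0.5.

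**Figure D2:**
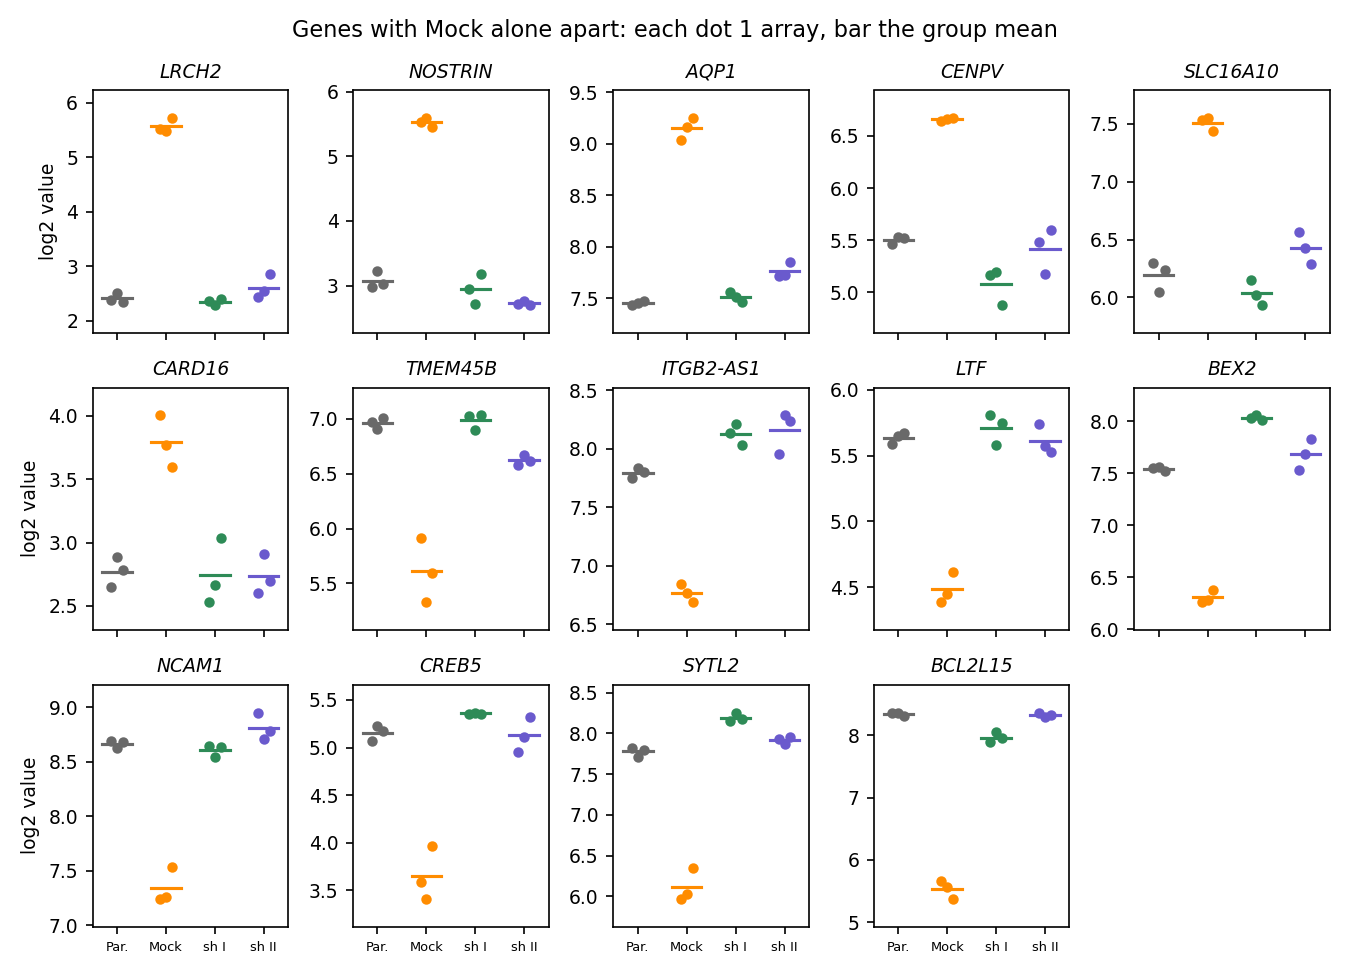
Log2 values of the 14 genes with Mock alone apart, 1 panel per gene, each dot 1 array and each bar the mean of 3 arrays for Parental (Par.), Mock, shCXCR4 (I) (sh I) and shCXCR4 (II) (sh II); the vertical scales differ between panels and do not start at 0. In the first panel the Mock arrays of LRCH2 sit between 5.49 and 5.71 and the other 9 between 2.30 and 2.86.

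Other probe sets of the same genes are separate probes on the same RNA and were not used by the rule. AQP1 had 1 further probe set, with Mock higher by 1.46. BCL2L15 had 2, with Mock lower in both, at -1.83 and -3.66. SYTL2 had 1 at -1.89 and 1 dim one, at a mean of 3.01, with -0.27. Of 6 further NCAM1 probe sets 3 were below the range, by -1.36, -0.87 and -1.02, and the 3 dimmest differed by -0.05 to -0.10. The single further CARD16 probe set, at a mean of 1.95, differed by 0.03, and Mock was inside the range there. Of 21 further probe sets of these genes, 15 (71.4%) had Mock outside the range in the same direction, and of 51 for all 36 genes at least 2-fold apart 36 (70.6%) did. The share was 21.2% for the 2553 genes as a group, 16.4% where the nearest-group difference was under 0.25, and 8.48% of all further probe sets had Mock outside in either direction.

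In the other 22 of the 36 genes Mock was the extreme group and the other 3 also differed among themselves. EEF1A2, a translation elongation factor found mainly in muscle and brain, read 7.87, 8.11 and 8.00 on the Mock arrays, 5.46, 5.49 and 5.22 in Parental, 4.80, 3.92 and 4.39 in shCXCR4 (I) and 4.81, 4.59 and 4.71 in shCXCR4 (II). Parental was above both clones, and Mock was 2.61 above Parental. SHISA3, an endoplasmic reticulum protein that restrains WNT and FGF receptors, read 10.89, 10.92 and 10.86 on the Mock arrays, 7.14, 7.01 and 6.88 in Parental, 8.70, 8.68 and 8.62 in shCXCR4 (I) and 8.79, 9.09 and 8.98 in shCXCR4 (II). Here the clones lay between, 1.66 and 1.95 above Parental (limma adjusted p = 1.38e-08 and 2.46e-09), so SHISA3 was lower in the clones than in Mock and higher in them than in Parental. The direction of a clone effect on SHISA3 therefore depended on which control it was read against. SHISA3 rests on a single probe set that can cross-hybridise (229485_x_at), with no further one to compare. SAGE1, a cancer-testis antigen, was near the dim end everywhere outside Mock, with 4.92, 4.70 and 4.55 in Mock and means of 2.63, 2.42 and 2.10 in Parental and the clones.

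Of 23 measured transcription regulators in a list of the SOX, EYA and DACH families and their partners, 7 were higher in Mock and 4 lower (5 and 4 after quantile normalization), with a list median of -0.075. DACH1, SOX9 and EYA4, all high in Mock, are the members among these 22 genes. DACH1, a transcriptional regulator of eye and limb development, read 7.04, 6.99 and 7.00 on the Mock arrays, 5.50, 5.53 and 5.48 in Parental, 2.52, 2.45 and 2.82 in shCXCR4 (I) and 2.78, 2.68 and 2.63 in shCXCR4 (II). TOX3, a chromatin-associated high mobility group box protein, read 8.17, 8.26 and 8.18 on the Mock arrays, 6.13, 6.31 and 6.28 in Parental, 4.96, 4.97 and 4.91 in shCXCR4 (I) and 4.77, 5.13 and 4.87 in shCXCR4 (II). SOX9, a high mobility group transcription factor of epithelial and cartilage progenitors, read 6.49, 6.65 and 6.69 on the Mock arrays, 5.29, 5.28 and 5.15 in Parental, 5.19, 5.17 and 5.24 in shCXCR4 (I) and 4.09, 4.05 and 4.29 in shCXCR4 (II). In DACH1 and TOX3 Parental lay between Mock and the clones, whereas in SOX9 Parental and shCXCR4 (I) were level and shCXCR4 (II) was -1.10 below Parental (limma adjusted p = 4.24e-07). EYA4, a phosphatase and transcriptional coactivator, had Mock 1.12 above Parental and both clones lower still. TOX3 rests on a probe set that can cross-hybridise (216623_x_at), and 1 of its 3 further probe sets differed by -0.10. DACH1 was higher in Mock on both further probe sets, by 3.02 and 2.18. The defensin DEFB1, the extracellular matrix protein FREM2 and CRACDL had nearest-group differences of 1.36, 1.76 and 1.48.

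Among the genes low in Mock, NRCAM, a neuronal adhesion molecule related to L1CAM, read 6.95, 6.92 and 7.01 on the Mock arrays, 8.73, 8.70 and 8.72 in Parental, 9.31, 9.25 and 9.26 in shCXCR4 (I) and 9.24, 9.09 and 9.19 in shCXCR4 (II). ITGB8, an integrin subunit known for activating latent TGF-beta, read 7.27, 7.22 and 7.27 on the Mock arrays, 9.43, 9.52 and 9.35 in Parental, 8.78, 8.65 and 8.71 in shCXCR4 (I) and 8.14, 8.34 and 8.40 in shCXCR4 (II). CAV2, a caveolin, read 7.51, 7.63 and 7.58 on the Mock arrays, 9.53, 9.52 and 9.51 in Parental, 8.99, 9.18 and 9.06 in shCXCR4 (I) and 8.84, 8.84 and 9.19 in shCXCR4 (II). NRCAM was higher in the clones than in Parental, by 0.56 and 0.46, whereas ITGB8 was lower in the clones than in Parental, by -0.72 and -1.14, and higher in them than in Mock. ITGB8 and CAV2 thus share with SHISA3 a clone difference that changes sign with the control. RAI2, SAMD5 and SCGB2A1 had nearest-group differences of -1.02, -1.50 and -1.35.

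A change of sign was also seen in KIT, the receptor for stem cell factor, whose nearest-group difference was below 1. KIT read 3.76, 3.33 and 3.63 on the Mock arrays, 6.68, 6.31 and 6.62 in Parental, 4.43, 4.46 and 4.33 in shCXCR4 (I) and 4.30, 4.41 and 4.45 in shCXCR4 (II). The clones minus Parental gave -2.13 and -2.15 (limma adjusted p = 2.33e-08 and 1.9e-08), while Mock minus the clones gave -0.83 and -0.81. KIT thus read as lowered in the clones against Parental and as raised in them against Mock. PHGDH, the entry enzyme of serine synthesis, read 6.58, 6.52 and 6.63 on the Mock arrays, 7.53, 7.36 and 7.45 in Parental, 8.49, 8.47 and 8.48 in shCXCR4 (I) and 8.37, 8.33 and 8.30 in shCXCR4 (II). IL32, a cytokine, read 4.59, 4.83 and 4.40 on the Mock arrays, 5.22, 5.40 and 5.30 in Parental, 7.09, 7.25 and 7.16 in shCXCR4 (I) and 6.94, 6.99 and 7.29 in shCXCR4 (II). In PHGDH and IL32 Parental lay between Mock and the clones, and both clones were higher than either control.

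**Figure D3:**
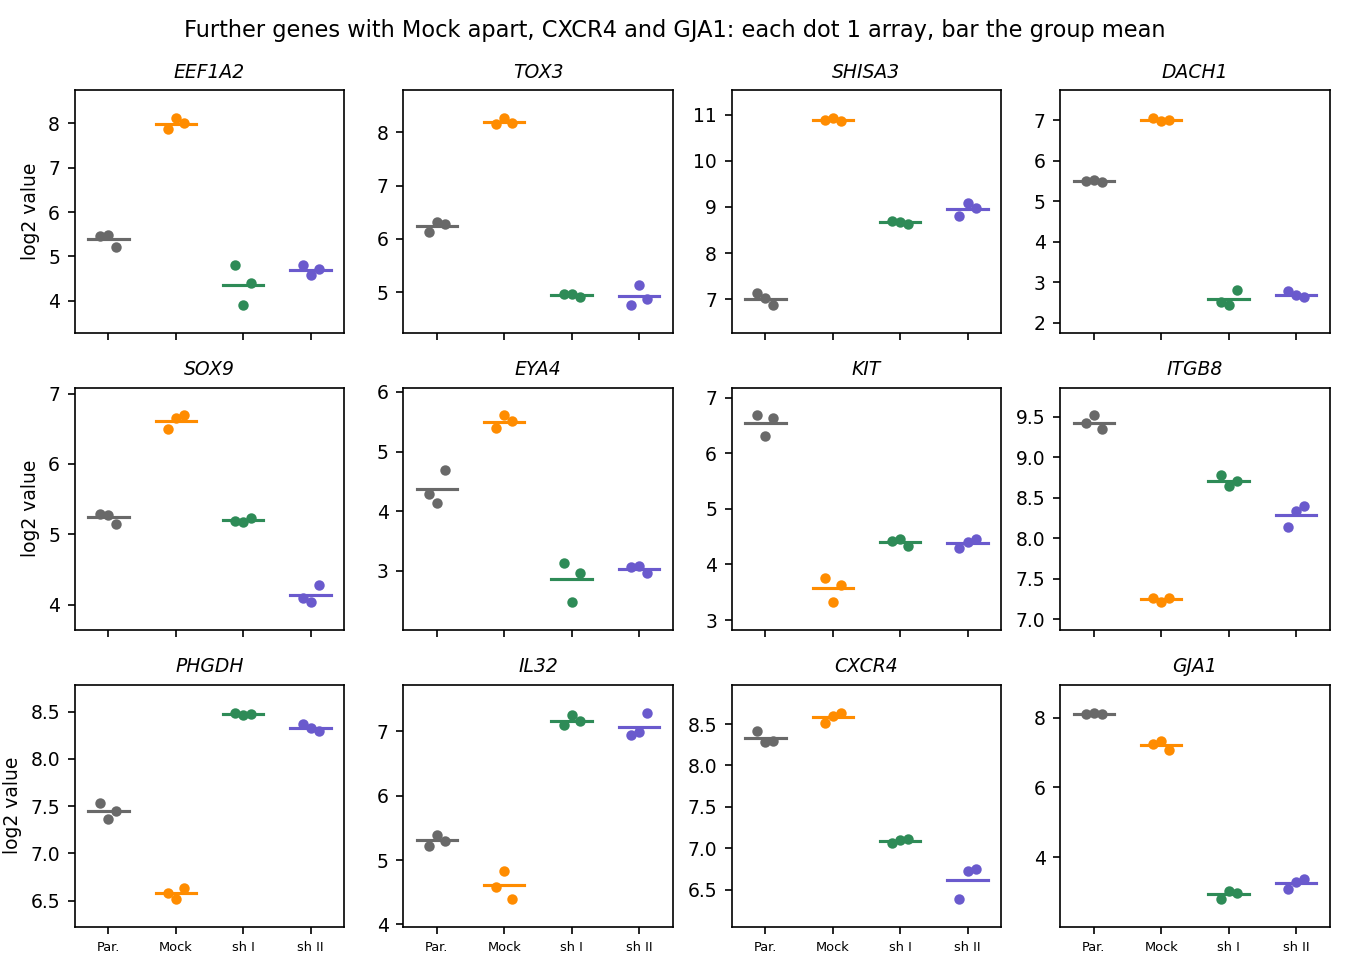
Log2 values of 12 genes, each dot 1 array and each bar the mean of 3 arrays for Parental (Par.), Mock, shCXCR4 (I) (sh I) and shCXCR4 (II) (sh II), with a scale of its own per panel that does not start at 0. In SHISA3, ITGB8 and KIT the clones lie between Mock and Parental, while CXCR4 and GJA1 are low in both clones and high in both controls.

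Whether Parental lay with Mock or with the clones was counted over the genes at least 2-fold changed in 1 direction and past the limma test in both clones against Mock. There were 94 such genes (0.475% of those tested), 31 higher in the clones and 63 lower. Both clones are compared with the same 3 Mock arrays, so a shift of Mock enters both. For each gene the position of Parental was expressed on a scale from 0%, level with Mock, to 100%, level with the mean of the clones. Parental stood at 75% or more for 25 genes (26.6%), between 25% and 75% for 36 and under 25% for 33 (35.1%), with a median position of 42.8%. It stood at or beyond the clones for 9 genes and on the far side of Mock for 17. Of the 31 genes higher in the clones 13 (41.9%) had Parental with the clones, and of the 63 lower ones 12 did. The difference between these shares was not tested. Mock was outside the range of all other arrays for 69 of the 94, and for 12.9% of all genes. The 94 were chosen for a Mock difference from both clones, which favours a high share.

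The 25 genes with Parental at 75% or more look like knockdown genes against Mock, and most were less than 2-fold changed against Parental. Their median absolute difference was 1.66 for Mock against Parental and 0.304 and 0.259 for shCXCR4 (I) and (II) against Parental. Over all genes the median for the clones against Parental was lower, at 0.107 and 0.115. Only 2 of them were 2-fold changed in shCXCR4 (I) against Parental and 2 in shCXCR4 (II), although 15 and 13 passed the limma test. Of all genes, 16.8% and 17.0% passed that test and 0.723% and 0.733% were 2-fold changed. LRCH2 (position 102%), BCL2L15 (107%), SAGE1 (84.9%), CRACDL (95.2%) and NRCAM (77.6%) are examples. SHISA3 (187%), ITGB8 (174%), RAI2 (138%) and CAV2 (135%) are in this set because Parental lay beyond the clones. The positions decided which genes are in the set, so these figures describe it.

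For 33 genes Parental stood under 25%, so by the choice of the set the clones differed from both controls. At least 2-fold differences from Parental were present for 30 of them in shCXCR4 (I) and for 30, not all the same genes, in shCXCR4 (II). GJA1, the gap junction protein connexin 43, read 7.24, 7.33 and 7.08 on the Mock arrays, 8.11, 8.14 and 8.09 in Parental, 2.81, 3.03 and 2.99 in shCXCR4 (I) and 3.10, 3.30 and 3.37 in shCXCR4 (II). It was lower in the clones by -5.17 and -4.86 against Parental, more than against Mock. BASP1, a membrane-bound growth cone protein, NCALD, a neuronal calcium sensor, and KCTD12, an auxiliary subunit of GABA-B receptors, were lower in both clones, and Parental stood at 15.3%, 12.7% and -26.9%. NPNT, an integrin-binding matrix protein, and LINC00518 were higher in both clones, with Parental at -18.4% and 14.6%. CXCR4 belongs to this set as well.

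**Figure D4:**
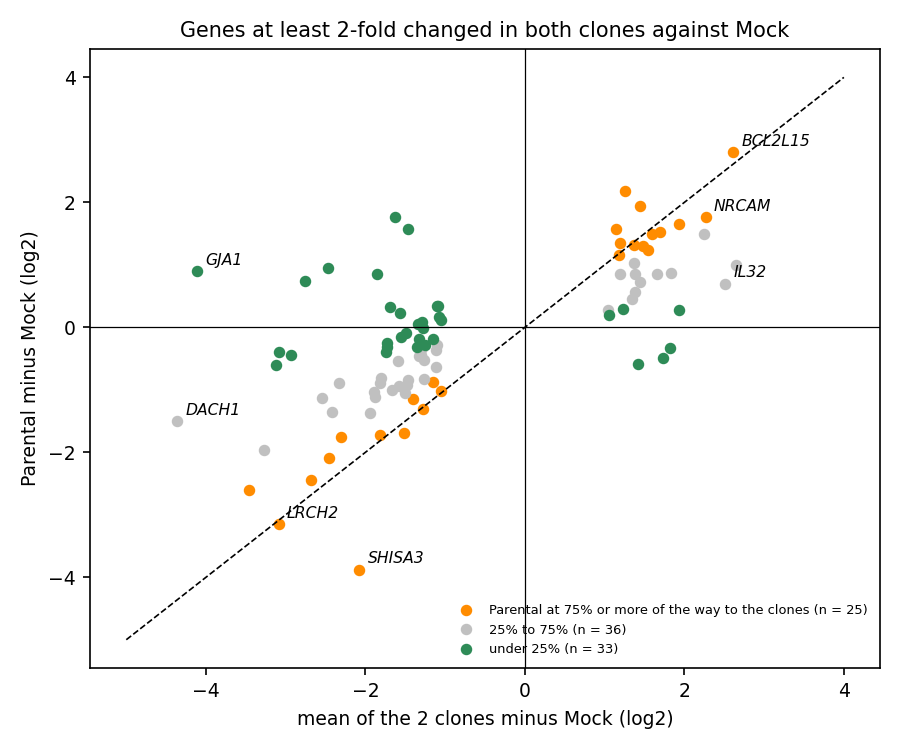
Parental minus Mock against the mean of the 2 clones minus Mock (both log2) for the 94 genes at least 2-fold changed in both clones against Mock. Genes on the dashed line have Parental level with the clones (orange, 25 genes at 75% or more) and genes near the horizontal line at 0 have Parental level with Mock (green, 33 genes under 25%; grey, 36 between).

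Of 41 gene lists set by pathway, process or cell type, several moved with Mock, and splitting the comparison by group showed which ones set Mock apart from Parental as well. The median over all genes was -0.01 for Mock against the mean of the others, and 15.6% of genes were higher and 10.7% lower. Of 30 genes of mitosis and the spindle, 24 were higher in Mock and 1 lower, with a median of 0.31, and 21 and 1 after quantile normalization. Against Parental alone, where 9.78% of all genes were higher and 5.23% lower, 1 of the 30 was higher and 2 were lower, and the median was 0.06. Against shCXCR4 (I) the median was 0.58 with 28 of 30 higher, where 13.6% of all genes were higher and 9.97% lower. Against shCXCR4 (II) it was 0.29 with 16 of 30 higher, where 15.1% of all genes were higher. Compared with Parental, 28 of the 30 were lower in shCXCR4 (I) and 11 in shCXCR4 (II), where 1693 and 1875 of all 19775 genes were lower. Mock values of BUB1, a checkpoint kinase, were 0.81 above shCXCR4 (I), 0.32 above shCXCR4 (II) and 0.17 above Parental. Its shCXCR4 (II) value against Parental, -0.15, did not pass (limma adjusted p = 0.119), and its call for Mock against the mean of the others was lost when its probe sets were averaged, at 0.12. The DNA replication list had 22 of 29 higher and none lower, and 10 and none after quantile normalization, with 9 of 29 higher against Parental. Its members RRM1, of ribonucleotide reductase, and ORC1, of the origin recognition complex, were 0.20 and 0.25 above Parental.

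Lists with higher members in Mock against Parental too included antigen processing and hypoxia. Of 20 genes of class I antigen processing and the immunoproteasome, 12 were higher in Mock and 1 lower (9 and 1 after quantile normalization), with 9 higher and none lower against Parental. Against shCXCR4 (I) 4 were higher and 1 lower, with a median of 0.05, where 13.6% of all genes were higher. Against shCXCR4 (II) 14 were higher and none lower, where 15.1% of all genes were higher. Compared with Parental, 6 were higher and none lower in shCXCR4 (I), and 4 were lower and none higher in shCXCR4 (II). Of all 19775 genes, 1632 were higher in the first of these comparisons and 1875 lower in the second. PSMB9, a catalytic subunit of the immunoproteasome, was 0.96 ± 0.07 (SE) above the mean of the others and had the largest nearest-group difference of the list, 0.82. TAPBPL, a peptide editor of class I molecules, was 0.46 above Parental. Both genes were picked for Mock lying outside the range, so their differences are descriptive. Of 30 genes of hypoxia response and glycolysis 13 were higher and 1 lower (8 and 2 after quantile normalization), and 13 were higher against Parental. PDK1, which restrains pyruvate dehydrogenase, was 0.65 above Parental, and NDRG1, a stress-responsive gene, was -0.38 below it. P4HA1, a collagen prolyl hydroxylase, was 0.42 ± 0.06 (SE) above the mean of the others. This call was lost on another probe set, with those named _x_at or _s_at left out, at 0.09.

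Lists of genes that sense foreign nucleic acid or process shRNA moved upward in part. Of 32 genes induced by interferon or sensing foreign nucleic acid, 15 were higher and 4 lower in Mock, and 10 and 4 after quantile normalization. Against Parental 10 were higher and 2 lower, where 9.78% of all genes were higher. Against shCXCR4 (I) 8 were higher and 5 lower, and against shCXCR4 (II) 17 were higher and 1 lower. All genes had 13.6% and 15.1% higher in these comparisons. Compared with Parental, shCXCR4 (II) itself had 1 of the 32 higher and 8 lower, and shCXCR4 (I) had 5 and 3. OAS3, an enzyme activated by double-stranded RNA, was 0.52 above Parental and BST2, the tetherin gene, 0.32. MX2, an interferon-induced GTPase, was -0.44 against the mean of the others. Of 17 genes of the machinery that processes microRNA and shRNA 9 were higher and none lower, but after quantile normalization the counts were 5 and 2. DICER1, the RNase that cuts hairpins, was 0.29 ± 0.07 (SE) above the mean of the others, a call lost when its probe sets were averaged, at 0.07. DROSHA, the nuclear RNase of the same pathway, was 0.33 ± 0.06 (SE) above it. The clones carry shRNA plasmids too, and in these 17 genes the median was 0.12 against Parental, 0.21 against shCXCR4 (I) and 0.18 against shCXCR4 (II). Only 3 of the 17 were higher against Parental and 1 was lower, while against each clone 7 were higher and none lower.

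Lipid synthesis showed 2 layouts. Of 14 fatty acid synthesis genes 10 were higher in Mock and none lower, 7 and 2 after quantile normalization. SCD, the stearoyl-CoA desaturase, was 0.51 above Parental, 0.65 above shCXCR4 (I) and 0.69 above shCXCR4 (II), so it stood apart from all 3. ELOVL6, a fatty acid elongase, was 0.23 above Parental and 0.71 and 0.62 above the clones. Of 18 cholesterol genes 8 were lower and 1 higher against Parental, while 8 were higher and 1 lower against shCXCR4 (I), and 7 were higher against shCXCR4 (II). Mock thus lay between Parental and the clones, and the list median against the mean of the others was -0.01, -0.07 after quantile normalization and 0.05 after centring.

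Stress response, protease and adhesion lists went the other way, with more members lower than higher. Of 27 genes of the unfolded protein and amino acid stress responses 9 were lower and 4 higher in Mock, and 13 and 3 after quantile normalization, with 10 lower and 2 higher against Parental. TRIB3, a pseudokinase induced by such stress, was -0.79 against Parental, -0.63 against shCXCR4 (I) and -0.68 against shCXCR4 (II). ASNS, asparagine synthetase, was -1.11 against the mean of the others. The value was -0.09 on another probe set, with those named _x_at or _s_at left out. Of 31 proteases and their inhibitors 11 were lower and 2 higher, and 11 and none after quantile normalization. MMP7, matrilysin, was -0.58 against Parental and -0.17 against shCXCR4 (II). Of 26 adhesion genes of the immunoglobulin and cadherin type 8 were lower and 2 higher (6 and 2 after quantile normalization). NCAM1 and NRCAM, given above, are among the 8, whereas L1CAM, of the same family as NRCAM, was 0.62 ± 0.09 (SE) above the mean of the others.

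**Figure D5:**
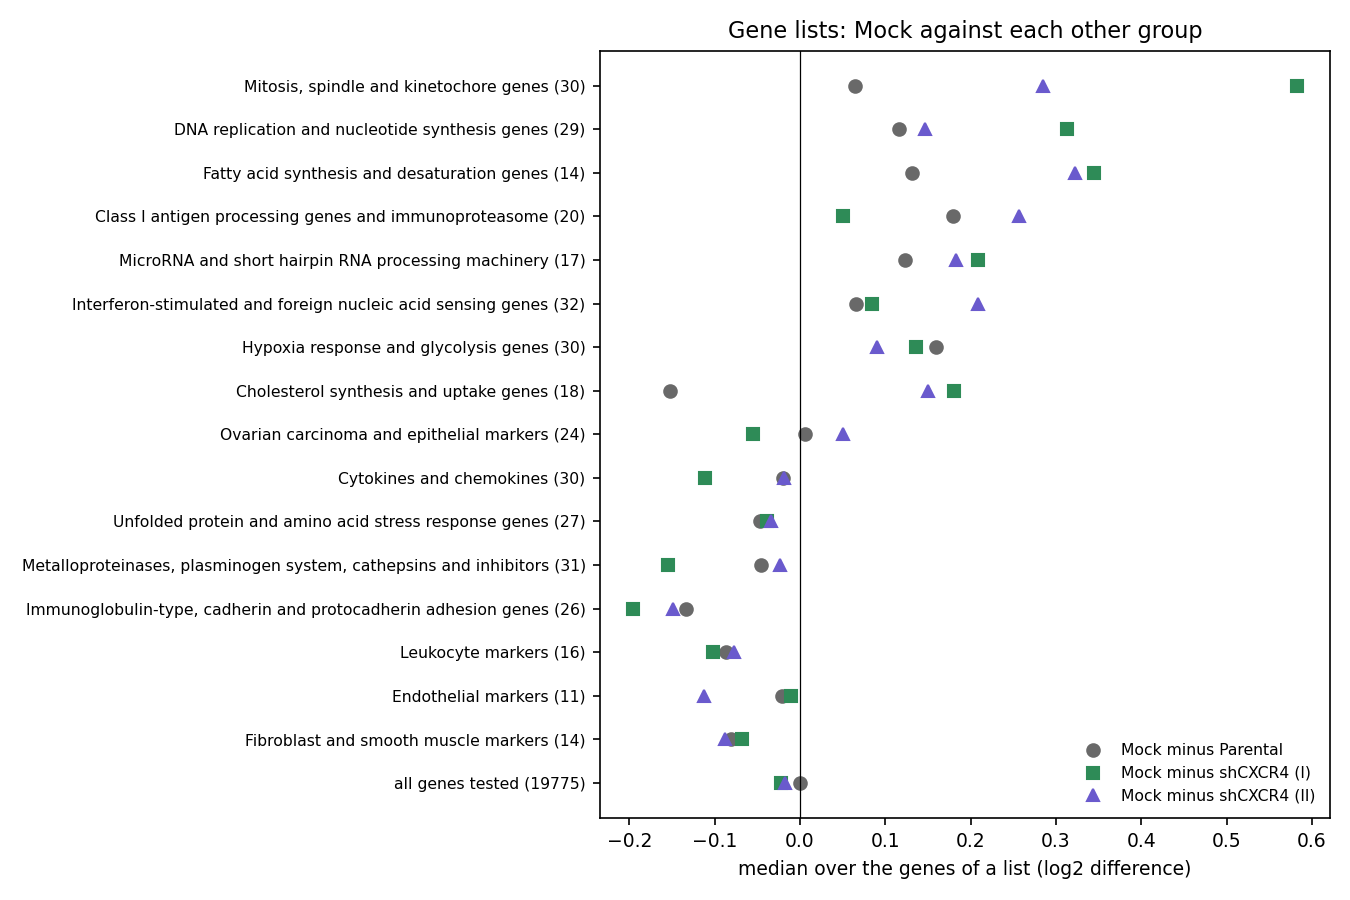
Median log2 difference of Mock from Parental (circles), shCXCR4 (I) (squares) and shCXCR4 (II) (triangles) over the measured genes of 16 of the lists, with their number in brackets, and over all 19775 genes. The mitosis list lies at 0.06 against Parental and at 0.58 and 0.29 against the clones, whereas the cholesterol list lies at -0.15 against Parental and at 0.18 and 0.15 against the clones.

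Around CXCR4 itself, 4 of 17 genes of its signalling axis were higher in Mock and 3 lower, the same numbers as after quantile normalization. RGS2, a brake on G protein signalling, was the member furthest from the nearest group, 0.94 above Parental, 0.56 above shCXCR4 (I) and 0.94 above shCXCR4 (II). Since RGS2 in shCXCR4 (II) was level with Parental (difference -0.00, SE 0.09), its lower value in that clone against Mock had no counterpart against Parental. JAG1, a Notch ligand, was 0.16 above Parental (limma adjusted p = 0.112), and IL6, a cytokine, was -0.08 against Parental and 0.77 and 0.69 above the clones. Of the 3 lower genes, CXCL8, a neutrophil chemokine, was -0.59 against Parental, -1.60 against shCXCR4 (I) and 0.03 against shCXCR4 (II). CD74, the receptor for MIF, was -0.29 ± 0.07 (SE) and TNF -0.27 ± 0.08 (SE) against the mean of the others. The CD74 call was lost without Mock replicate 2, at -0.19, and the TNF call without Mock replicate 1, at -0.17, without Mock replicate 2, at -0.27, after quantile normalization, at -0.24, and after centring, at -0.21. The ligand CXCL12 and the alternative receptor ACKR3 were -0.11 and -0.12 and did not pass (limma adjusted p = 0.288 and 0.191).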

How the data were processed

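The values are the log2 probe set values that the authors deposited for each array. Per the submitters' processing notes they come from RMA, run in R 2.6.0. Which chip definition file, background step or filter was used is not given in the sources used here. RMA values carry no detection call, and the number of arrays limits the precision. Of 54675 probe sets, 41091 had 1 gene symbol in GEO's platform annotation, 1801 had several and 11783 were left without one. The 62 control probe sets were kept out of the 41091 and are counted among the rest. By Entrez identifier, 41043 single-symbol probe sets matched RefSeq. Each of 19775 genes is represented by the brightest of its single-symbol probe sets, by the mean over 12 arrays.

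A group-means model was fitted to all 12 arrays with limma 3.58.1 in R 4.3.3 (lmFit, contrasts.fit, eBayes, with 8 residual and 5.19 prior degrees of freedom). The contrasts were Mock against the mean of the 3 other groups at equal weight, Mock against each group, each other group against its remaining groups, and the clones against Parental and against each other. P-values were adjusted by Benjamini-Hochberg over all genes, with a threshold of 0.05. On simulated data with 19575 unchanged genes the fit recovered 100% of 1.5-fold and 2-fold changes and called 9 unchanged genes. The simulated noise was independent between genes and held no difference in distribution width between arrays. It therefore does not show how many calls the wider Mock distribution gives.

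Genes with Mock alone apart had Mock outside the range of the other 9 arrays, a nearest-group difference of at least 1 and the other group means within 0.5. The text names CXCR4 and its axis, the 14 highest and 14 lowest genes by nearest-group difference, up to 12 each way with Mock alone apart, up to 3 members per list outside the range, 10 genes for each end of the Parental position, and those next to the limit of the rule. The members, the 41 lists (1072 genes, 981 measured) and the rules were chosen with earlier results of these data known. NPNT, IL6 and other axis genes are named whether or not Mock stood outside. The result for 1 gene that these rules name is not reported here. No batch is given in the labels. Same-numbered arrays had residual correlations of -0.109 to 0.148, and 2 of 12 arrays correlated best with their own number, so the numbers were not used as a block. Hybridisation and poly-A controls, viewed after the data were seen, had means of 8.95 in Mock and 8.95 elsewhere and of 6.13 and 6.17. Alternatives were quantile normalization, median centring, other choices of probe set, filters on dim genes, other variance models, a replicate block, a stricter p, other limits of the rules and leaving out each array. Tables and exact tests used pandas 2.3.3, numpy 2.4.6 and scipy 1.17.1 in Python 3.11.15, and plots matplotlib 3.10.9.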

Additional observations from a re-analysis of the deposited data

How the results depend on the processing

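The number of arrays limits every count here, and dim genes have no detection call. Of 3201 values of the 145 named genes under the alternatives, 3067 kept their direction and side of the threshold, 118 lost the call, 10 gained it and 6 changed sign. The sign changed for BCL2L13 with its probe sets averaged (-0.019), and, without probe sets named _x_at or _s_at, for ABCA2 (-0.003), AKR1C1 (-0.063), SMAD6 (-0.066), KRT7 (-0.089) and COL6A1 (-0.172). The cause was not tested. Among the lists, 53 of 615 values moved past their limit.

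Quantile normalization gave 1889 genes higher in Mock in place of 3083, and 958 above the range in place of 1651. Median centring gave 1172 lower in place of 2119, 2524 above and 466 below the range. With the probe sets of a gene averaged, 62 genes were 2-fold in both clones against Mock in place of 94, 19 of them with Parental near Mock in place of 33. Without _x_at and _s_at probe sets, shCXCR4 (I) differed from the other groups in 1918 genes in place of 2957, and from shCXCR4 (II) in 865 in place of 1413. Taking every single-symbol probe set raised the counts by construction. Mock then differed in 7976 (4851 higher, 147 by 2-fold in place of 88) and was outside the range in 4360 (2801 above, 1559 below), alone apart in 25. Parental differed from the others in 4621, shCXCR4 (I) from Parental in 5099 and shCXCR4 (II) from Parental in 5149. There were then 157 probe sets 2-fold in both clones, 39 with Parental near the clones and 53 near Mock.

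Filters on dim genes lowered some counts and raised others. At a mean log2 of at least 6, 943 genes were lower in Mock, 48 were 2-fold, 342 lay below the range, 8 were alone apart and 46 were 2-fold in both clones (14 with Parental near the clones, 13 near Mock). In the upper 50 percent by mean level, 1221 were lower, 434 lay below the range and 62 were 2-fold in both clones, 19 with Parental near Mock. Array weights gave 2149 genes between the clones. At an adjusted p under 0.01 in limma, Mock differed in 2732 (1837 higher, 895 lower) and passed all 3 single comparisons in 480. Parental, shCXCR4 (I) and shCXCR4 (II) then differed from the remaining groups in 1780, 1665 and 1367, the clones from Parental in 1963 and 1762, and from each other in 589. A gap of at least 0.2 left 359 genes outside the range, 230 above and 129 below. Mock was alone apart in 4 genes with the other means within 0.25 and in 27 within 1. With limits of 90% and 10%, 16 and 20 of the 94 genes had Parental with the clones and with Mock.

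With the replicate number as a block, 5050 genes differed in Mock in place of 5202 and 1024 passed all 3 comparisons in place of 1105. The numbers do not pair the arrays.

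Leaving out 1 array at a time gave 3380 to 6055 genes past the test in Mock, 1203 to 2603 lower, and 733 to 1202 past all 3 comparisons, each lowest without Mock replicate 2. It gave 2625 to 4155 outside the range and 944 to 1679 below it, where fewer arrays widen the count by construction. The ranges were 1941 to 3332 for Parental against the rest, 1864 to 3147 and 1705 to 3947 for the clones against the rest, 2215 to 4033 for shCXCR4 (II) against Parental and 770 to 1799 between the clones.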

Other observations

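Of 39 receptor tyrosine kinases and ephrins, 11 were higher in Mock and 6 lower, and 7 and 7 after quantile normalization, with a median of 0.03. Single genes of this and other signalling lists follow. TCF7L1, a transcription factor of the WNT pathway, was 0.88 above Parental, 2.20 above shCXCR4 (I) and 2.45 above shCXCR4 (II). FGFR3, a fibroblast growth factor receptor, was 0.85, 0.68 and 0.93 above the same groups, and SPRY2, an inhibitor of receptor tyrosine kinase signalling, 0.72, 0.46 and 1.11. The growth factor gene TGFA was -1.29, -1.22 and -0.66, and EGFR, its receptor, -0.60, -0.38 and -0.42. EGFR did not pass on another probe set, with those named _x_at or _s_at left out, at -0.19. ABCB1, the drug efflux pump, was 0.41 above Parental and 1.03 and 0.95 above the clones, and the calcium channel TRPC6 was 1.11, 0.72 and 1.78 above them. Of 33 genes of semaphorin and axon guidance signalling 9 were lower in Mock and 3 higher, and 6 and 3 after quantile normalization. The semaphorin receptors NRP1, NRP2 and PLXNA2 were -0.37, -0.34 and -0.33 against the mean of the others, and the NRP1 call was lost with its probe sets averaged, at -0.14.

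Genes were also laid out by chromosome, a view chosen after the values were seen, with chromosomes and gene order from RefSeq GRCh38.p14. Over genes with a mean log2 of at least 6, the median of Mock minus the mean of the others was 0.06 to 0.11 on each autosome and -0.08 on the X chromosome. The X value was 0.02 against Parental, -0.19 against shCXCR4 (I) and -0.08 against shCXCR4 (II). In blocks of 25 neighbouring X genes the first 5 blocks had medians of 0.02 to 0.08, and the last 6 had -0.32 to -0.20. In those last 6 blocks the median was -0.05 to 0.08 against Parental, -0.49 to -0.25 against shCXCR4 (I) and -0.47 to -0.19 against shCXCR4 (II). Chromosome 14 had a median of 0.20 for Mock against Parental, where the other autosomes had 0.02 to 0.10, and both clones were above Parental there as well, at 0.15 and 0.11. These differences were not tested.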
